A study of Mus musculus with 2 samples.

Results

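The cells described here are *Gpnmb*+ *Apoe*-high modulated cells of primary aortic vascular smooth muscle cell (VSMC) cultures. They were chosen by their measured counts. A cell belonged to the set if it had at least 1 *Gpnmb* UMI, at least 5 *Apoe* UMIs, at most 1 *Myh11* UMI, fewer than 3 UMIs summed over the cycling genes *Mki67*, *Top2a* and *Cenpf*, at most 1 *Sox9* UMI and 0 UMIs of *Fgf18* and *Il1rn*. A UMI is a unique molecular identifier, which tags 1 captured mRNA molecule. Of 11690 cells that passed quality control, 730 met the rule. In the GENCODE annotation of GRCm38, *Gpnmb* lies on the plus strand at chr6:49036546-49070929 and *Apoe* on the minus strand at chr7:19696109-19699188.

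The cells came from the aortae of wildtype C57BL6/N mice of both sexes. No transgene, knockout or drug was used, and 1 condition was profiled by scRNA-seq, so that no treatment effect can be read from the data. After enzymatic dissociation the cells grew for 5 days in medium with fetal calf serum, and cells from several aortae went into each preparation. The 2 libraries, biological replicates 1 and 2, held 127949633 and 132561822 UMIs, and 4866 and 6824 cells with a median of 22234.5 and 16310 UMIs were kept. The model has no lipid loading and no lineage label, so that a cell low in *Myh11* is not shown to descend from a smooth muscle cell.

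Modulated SMCs are cells that have lost contractile proteins and have taken up migration, matrix synthesis and, in plaques, lipid. Foam cells store cholesterol esters. Esters in lysosomes are hydrolysed to cholesterol, which leaves the cell through ABC transporters on to apolipoproteins such as ApoE. GPNMB is a membrane glycoprotein of lysosomes and phagosomes, and its gene is a known target of the MiT family of transcription factors, which drive lysosomal genes through short E-box motifs.

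The libraries stood apart in how many of these cells they held. In replicate 1, 68 of 4866 cells met the rule (1.40%, exact 95% binomial interval 1.09% to 1.77%), and in replicate 2 it was 662 of 6824 cells (9.70%, 9.01% to 10.4%). The intervals cover counting error only. The libraries already differed in the *Gpnmb* and *Apoe* conditions. Of non-cycling cells with at most 1 *Myh11* UMI, termed low-*Myh11* cells, 38.3% and 78.5% had a *Gpnmb* UMI, and 17.0% and 37.1% had at least 5 *Apoe* UMIs. After thinning of each cell to 10000 UMIs, with 447 and 1094 shallower cells left out, the shares were 0.815% and 8.22%. No test of this gap was possible with 1 library on each side.

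Within the set the rule genes ranged widely. *Gpnmb* had a median of 1 UMI per cell (1 to 11) in replicate 1 and of 4 (1 to 124) in replicate 2, and *Apoe* a median of 10 (5 to 45) and 11 (5 to 93). In replicate 1, 38 of the 68 cells had exactly 1 *Gpnmb* UMI, and in replicate 2 it was 125 of 662. Most cells of replicate 1 thus sat at the lower *Gpnmb* limit of the rule, whereas most cells of replicate 2 were above it.

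**Figure D1:**
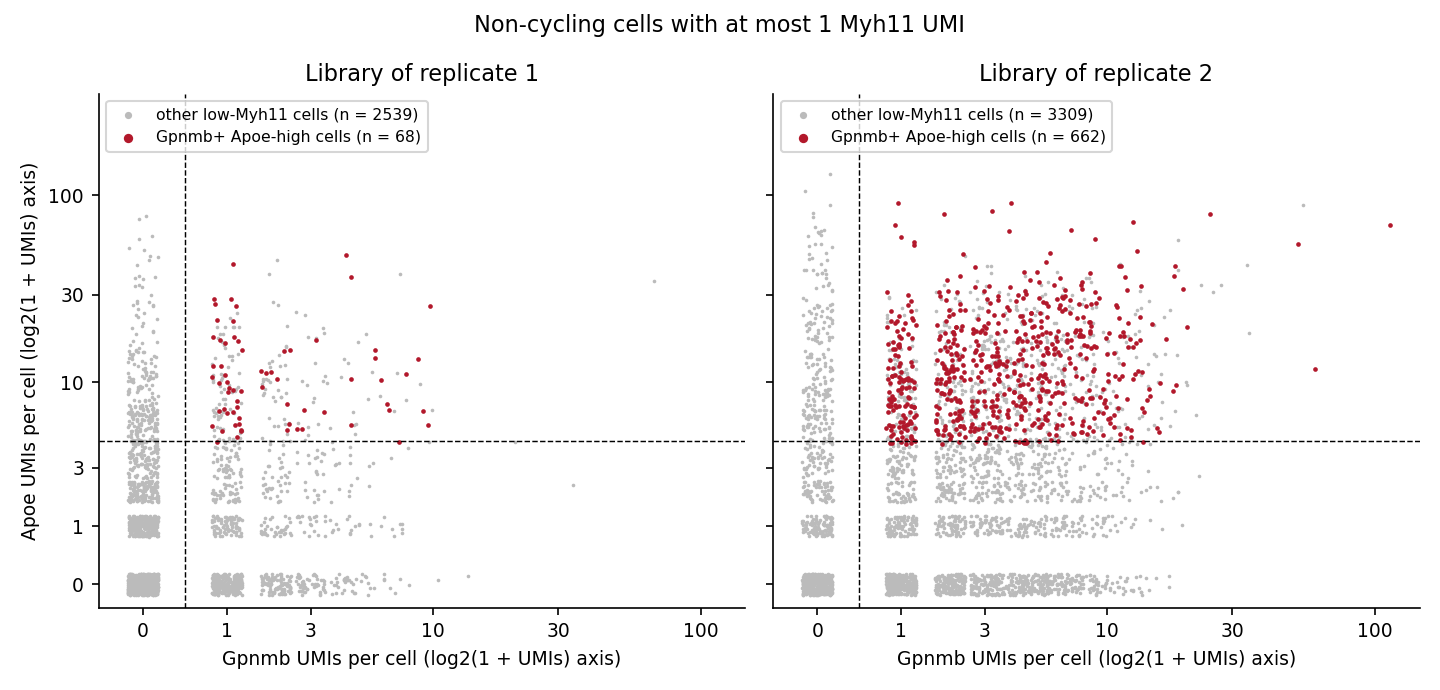
*Gpnmb* UMIs (x axis) and *Apoe* UMIs (y axis) of each low-*Myh11* cell in both libraries, on log2(1 + UMIs) axes with a small random offset. Red points are the 68 and 662 cells of the set, grey points all other low-*Myh11* cells, including those above both dashed limits that *Sox9*, *Fgf18* or *Il1rn* excluded.

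Free RNA in the droplets could add to these counts. Barcodes with 1 to 100 UMIs, which hold no cell, had *Gpnmb* at 29.9 and 117 CPM (UMIs per 1000000 summed UMIs) and *Apoe* at 123 and 323 CPM. The set had *Gpnmb* at 121 and 330 CPM and *Apoe* at 588 and 993 CPM. The rule itself sets a minimum of both genes in each cell, so that their excess over the free RNA is a description of the rule. A *Gpnmb* UMI was also found in 13.6% and 21.2% of endothelial cells (ECs, median 15719.5 and 11234 UMIs) and in 24.4% and 36.6% of contractile cells (non-cycling, at least 10 *Myh11* UMIs; median 24798 and 19632 UMIs). At least 5 *Apoe* UMIs were found in 54.5% and 71.7% of ECs, but in 9.38% and 6.55% of contractile cells. The share of ECs at this *Apoe* level was thus larger than that of low-*Myh11* cells, and the share of contractile cells smaller. The part of free RNA in single cells with 1 *Gpnmb* UMI was not tested.

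The label names *Fgl2*, a fibrinogen-related secreted protein, and *Mmp3*, a matrix metalloproteinase, beside the rule genes, and both were compared with matched cells. Matched cells were low-*Myh11* cells of the same library with 0 *Gpnmb* UMIs, 1 for each cell of the set, nearest in total UMIs. The median was 19130 UMIs for both sets in replicate 1, and 13198 for the set against 12261 for matched cells in replicate 2. The match was looser in replicate 2, where 662 of 853 eligible cells were used and 378 of the 662 pairs lay within 10% of each other in UMIs, against all 68 pairs in replicate 1. *Fgl2* was at 73.7 and 185 CPM in the set and at 57.7 and 78.1 CPM in matched cells. *Mmp3* was at 36.2 and 211 CPM, against 32.7 and 73.7 CPM. The set exceeded matched cells mainly in replicate 2, where 50.5% of its cells had an *Fgl2* UMI (matched 29.3%) and 40.6% an *Mmp3* UMI (matched 19.5%). In replicate 1 these shares were 36.8% against 33.8% for *Fgl2* and 17.6% against 19.1% for *Mmp3*. Barcodes of 1 to 100 UMIs had *Fgl2* at 28.6 and 56.8 CPM and *Mmp3* at 17.4 and 58.9 CPM, and in contractile cells the shares were 35.0% and 30.3% for *Fgl2* and 9.38% and 5.52% for *Mmp3*. Neither gene passed the edgeR test over all genes, with a log2 fold change of 0.96 ± 0.34 (SE, n = 2 libraries, edgeR adjusted p = 0.330) for *Fgl2* and 1.19 ± 0.47 (adjusted p = 0.384) for *Mmp3*. With this mixed result, the cells are called *Gpnmb*+ *Apoe*-high and not foam-like.

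Some of the cells carried markers of other cell types. Cells with at least 2 UMIs over the macrophage genes *Ptprc*, *Csf1r*, *Adgre1*, *Tyrobp* and *Fcer1g*, termed macrophage-marked, made up 1 of 68 and 5 of 662 cells of the set, and 1 of 68 and 2 of 662 matched cells. The 18 macrophage markers summed to 87.6 and 159 CPM in the set and to 18.1 and 14.5 CPM in matched cells. *Lyz2*, the lysozyme of myeloid cells, was the most abundant of them in the set, at 54.9 and 97.5 CPM. In replicate 1, 8 of the 18 markers were at 0 in the set, among them *Ptprc*, *C1qa* and *Cd74*, whereas in replicate 2 all 18 were detected, *Ptprc* with 3 UMIs in 2 cells. UMIs of some of these markers also lay in cells that were not macrophage-marked. *Csf1r*, the M-CSF receptor gene, had 9 UMIs in 9 cells and 43 UMIs in 35 cells of the set, and 10 UMIs in 9 cells and 33 UMIs in 31 cells among matched cells. Its level in the set, 6.26 and 4.35 CPM, was near that in barcodes of 1 to 100 UMIs, 5.19 and 3.42 CPM. The part of free RNA in these UMIs was not tested. *Cd14* was found in 5 and 25 cells of the set and in 4 and 18 matched cells, at 6.26 and 3.84 CPM in the set and 2.34 and 1.60 CPM in these barcodes.

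Doublets were kept, and macrophages, doublets and SMCs with macrophage genes cannot be told apart among these few cells. In the macrophage-marked cells lay 100% of the *Ctss* UMIs of both libraries, 95.7% and 100% of the *Mmp12* UMIs, 94.9% and 95.7% of the *Lyz2* UMIs and 94.7% and 75.5% of the *Cd68* UMIs of the set. The same cells held 61.3% and 31.6% of the UMIs of *Lgals3*, the galectin-3 gene often used for foam-like SMCs. Of *Gpnmb* they held 5.17% and 7.89%, of *Apoe* 1.78% and 1.67%, of the cathepsin gene *Ctsd* 3.73% and 5.80%, and of *Ctsb* 15.8% and 8.53%. *Gpnmb* without them was at 115 and 306 CPM, which the rule largely fixes, since each cell of the set had to hold both rule genes.

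**Figure D2:**
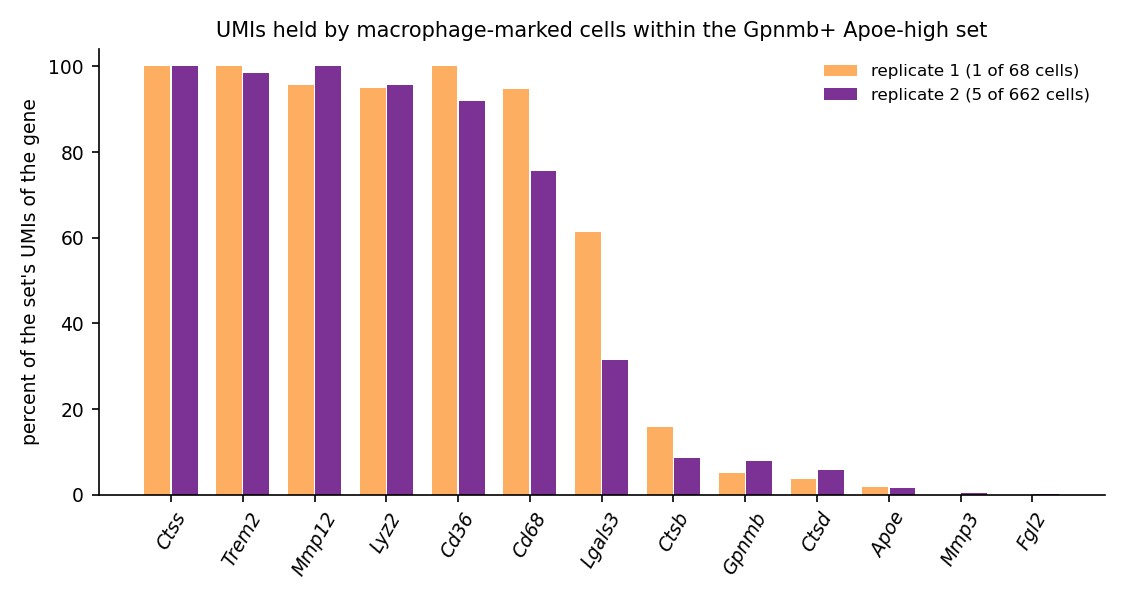
Percent of the UMIs of a gene in the *Gpnmb*+ *Apoe*-high set (y axis) that lay in its macrophage-marked cells, 1 of 68 in replicate 1 and 5 of 662 in replicate 2. *Ctss*, *Trem2*, *Mmp12* and *Lyz2* exceed 94% in both libraries, whereas *Gpnmb*, *Ctsd*, *Apoe*, *Mmp3* and *Fgl2* are below 8%.

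EC-marked cells, with at least 2 UMIs over *Pecam1*, *Cdh5*, *Kdr* and *Tie1*, were 5 of 68 and 15 of 662 in the set (7.35% and 2.27%) and 2 of 68 and 75 of 662 in matched cells (2.94% and 11.3%). The 10 EC markers summed to 500 and 168 CPM in the set and to 298 and 582 CPM in matched cells, so that the difference ran in opposite directions in the libraries. The 12 adventitial fibroblast markers, several of which modulated SMCs also express, summed to 2614 and 2774 CPM against 2112 and 1771 CPM, with *Dcn* (decorin) the most abundant at 655 and 1018 CPM. They did not share 1 direction: 8 were higher and 2 lower in both libraries. The 2 lower ones were *Cd34*, at 20.2 and 15.7 CPM against 29.2 and 64.4 CPM, and *Col14a1*, at 304 and 206 CPM against 360 and 217 CPM. Of the 8 osteoclast markers *Ctsk*, the collagenolytic cathepsin K, gave most of the sum of 120 and 212 CPM (matched 67.5 and 97.4 CPM). *Acp5*, tartrate-resistant acid phosphatase, was at 2.78 and 4.75 CPM against 1.39 and 1.24 CPM, and *Atp6v0d2* at 6.26 and 4.75 CPM against 1.39 and 0.788 CPM. *Calcr* and *Dcstamp* were at 0 in the set and in matched cells of both libraries. The melanocyte markers, which matter because *Gpnmb* is abundant in melanocytes, summed to 1.39 and 6.27 CPM (matched 0 and 5.29 CPM), with *Pmel*, *Tyr*, *Dct* and *Tyrp1* at 0 in both libraries. *Mlana*, the most abundant of them in replicate 2, had 43 UMIs in 31 cells of the set (4.68%) and 7 UMIs in 5 matched cells (0.755%) there, and 0 UMIs in both sets of replicate 1. Schwann markers summed to 44.5 and 58.7 CPM, most of it *S100b*, with *Sox10* and *Foxd3* at 0. Adipocyte and mesothelial markers were at most 1.72 and 11.8 CPM.

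Across all 11860 genes tested, few differed from matched cells beyond the spread of the sums. edgeR called 5 genes higher (0.0422%) and 2 genes lower (0.0169%) at an adjusted p below 0.05, and 670 (5.65%) and 736 (6.21%) at an unadjusted p below 0.05. DESeq2 called 23 higher and 26 lower. With 2 libraries, a gene was higher in both in 26.7% of cases (3170 genes) and lower in both in 27.9% (3306 genes). These shares are the background against which the lists below were read. The lists were chosen with earlier results of these data known, so that their counts are descriptions. The median log2 difference over all genes was -0.005.

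The 5 genes that rose were *Mmp12*, *Mmp11*, *Xdh*, *Serpina3n* and *Selenop*. *Serpina3n*, a secreted inhibitor of serine proteases, was at 124 and 70.2 CPM in the set and at 43.8 and 26.9 CPM in matched cells, with a log2 fold change of 1.43 ± 0.16 (SE, n = 2 libraries, edgeR adjusted p = 0.0490). *Selenop*, the selenium carrier selenoprotein P, was at 176 and 270 CPM against 96.7 and 149 CPM (log2 fold change 0.86 ± 0.10, edgeR adjusted p = 0.0490). For both genes every value of the set exceeded every value of matched cells.

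*Mmp11*, stromelysin-3, was at 31.3 and 37.2 CPM against 11.1 and 10.6 CPM, and 33.8% and 29.8% of cells had a UMI against 17.6% and 11.8% of matched cells. Its log2 fold change was 1.72 ± 0.19 (edgeR adjusted p = 0.0490). *Xdh*, the xanthine dehydrogenase of purine breakdown, was at 28.5 and 35.7 CPM against 12.5 and 12.2 CPM, a log2 fold change of 1.46 ± 0.18 (edgeR adjusted p = 0.0490). Again the values of the set and of matched cells did not overlap. In contractile cells *Xdh* was at 2.52 and 2.31 CPM and *Serpina3n* at 6.41 and 2.31 CPM, so that matched cells lay between these levels and those of the set.

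*Mmp12*, the macrophage metalloelastase, was at 16.0 and 30.7 CPM (23 and 304 UMIs) in the set and at 0 UMIs in matched cells (edgeR adjusted p = 0.00732). These UMIs lay in 2 cells of replicate 1 and in 3 of replicate 2, nearly all macrophage-marked, so that the call is not one about the set at large. Without macrophage-marked cells the gene was at 0.698 and 0 CPM and was not tested, and the other 4 genes had edgeR adjusted p-values of 0.0619 with nearly unchanged fold changes. When matched cells were required to have at least 5 *Apoe* UMIs too, *Serpina3n* differed by 0.46 (edgeR adjusted p = 0.474) and *Selenop* by 0.43 (adjusted p = 0.473) on the log2 scale, smaller differences than in the main comparison. *Mmp11* then differed by 1.32 (adjusted p = 0.122) and *Xdh* by 1.20 (adjusted p = 0.102), so that these calls were lost too while more of the difference was kept.

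The 2 genes that fell were *Col2a1* and *2200002D01Rik*. *Col2a1*, the collagen of cartilage, was at 0 and 3.34 CPM against 3.48 and 40.0 CPM in matched cells (log2 fold change -3.57 ± 0.38, edgeR adjusted p = 0.0490). Few cells held it: a UMI was found in 2.94% and 6.95% of matched cells and in 0% and 3.02% of the set. The rule removes cells with more than 1 *Sox9* UMI from the set but not from matched cells, and *Sox9* encodes an activator of *Col2a1*. With the same exclusions in matched cells the difference was -2.28 (edgeR adjusted p = 0.195), with matched cells of at least 5 *Apoe* UMIs it was -0.77 (adjusted p = 0.742), and with no *Apoe* condition on the set it was -0.91 (adjusted p = 0.706). *2200002D01Rik* was at 4.87 and 6.67 CPM against 13.9 and 17.6 CPM (log2 fold change -1.40 ± 0.17, edgeR adjusted p = 0.0490). Without EC-marked cells it differed by -0.94 (edgeR adjusted p = 0.134).

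Lysosomal genes shared a direction without passing the test one by one. Of 40 genes for lysosomal hydrolases and membrane proteins, 37 (92.5%) were higher than in matched cells in both libraries, against 26.7% of all genes, 1 was lower in both, and 27 had an unadjusted p below 0.05, all higher. No member passed the edgeR threshold over all genes. DESeq2 called 4 higher, against 23 among all genes, and its adjusted p was NA for 15 of the 40. The median log2 difference of the list was 0.50, with 0.45 in replicate 1 and 0.54 in replicate 2. The summed level of the list was 8331 and 12300 CPM in the set, 6133 and 8569 CPM in matched cells and 6034 and 6621 CPM in contractile cells. Per cell, the median was 7916 CPM (4880 to 43922) in replicate 1 and 12020 CPM (4990 to 58585) in replicate 2, and 60 of 68 cells (88.2%) and 608 of 662 cells (91.8%) exceeded the median of matched cells of their library. The 2 libraries thus differed in level, but the set was the higher one in each.

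Among the proteases, *Ctsd* (cathepsin D) was at 709 and 961 CPM against 441 and 593 CPM in matched cells, a log2 difference of 0.69 ± 0.13 (edgeR adjusted p = 0.158, DESeq2 adjusted p = 0.00865). *Ctsb* (cathepsin B) was at 330 and 426 CPM against 202 and 245 CPM (0.76 ± 0.11, edgeR adjusted p = 0.0827, DESeq2 adjusted p = 1.1e-04). Without macrophage-marked cells the set had *Ctsd* at 686 and 912 CPM and *Ctsb* at 279 and 393 CPM, still above matched cells. *Ctsl* (cathepsin L) was at 671 and 1203 CPM against 490 and 829 CPM, and *Ctsk* at 98.8 and 199 CPM against 59.1 and 88.4 CPM. Cathepsin genes were not uniform: *Ctsh* was at 187 and 206 CPM against 186 and 250 CPM.

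Genes for the breakdown of sphingolipids, members of the same list, differed among themselves. *Psap*, the precursor of the saposins that present sphingolipids to hydrolases, was at 352 and 462 CPM against 235 and 270 CPM (0.69 ± 0.10, edgeR adjusted p = 0.0928, DESeq2 adjusted p = 1.9e-04). *Hexa*, a β-hexosaminidase subunit that degrades GM2 ganglioside, was at 153 and 321 CPM against 95.3 and 187 CPM (0.74 ± 0.15, edgeR adjusted p = 0.171, DESeq2 adjusted p = 0.0214). *Gla*, α-galactosidase A, was at 25.7 and 39.7 CPM against 10.4 and 18.5 CPM. By contrast *Smpd1* (acid sphingomyelinase) was at 73.7 and 70.7 CPM against 63.3 and 65.4 CPM, and *Asah1* (acid ceramidase) at 170 and 285 CPM against 157 and 244 CPM. For cholesterol, *Lipa*, the acid lipase that hydrolyses cholesterol esters, was at 104 and 124 CPM against 94.6 and 99.1 CPM, and *Npc2*, which hands cholesterol on, at 548 and 864 CPM against 457 and 569 CPM.

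Membrane proteins of the lysosome were among the most abundant genes of the list. *Cd63*, the tetraspanin with the highest level, was at 1833 and 2570 CPM against 1321 and 1914 CPM (log2 difference 0.45 ± 0.11, edgeR adjusted p = 0.212). *Lamp1* was at 718 and 1105 CPM against 544 and 778 CPM (0.46 ± 0.12, edgeR adjusted p = 0.213), and *Lamp2* at 284 and 407 CPM against 200 and 259 CPM. Of 15 tested subunits of the V-ATPase, the pump that acidifies lysosomes, 13 were higher in both libraries and none was lower in both, but by less, with a median log2 difference of 0.27. The most abundant, *Atp6v0e*, was at 420 and 487 CPM against 351 and 485 CPM, and the accessory subunit *Atp6ap2* at 105 and 177 CPM against 73.7 and 135 CPM.

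**Figure D3:**
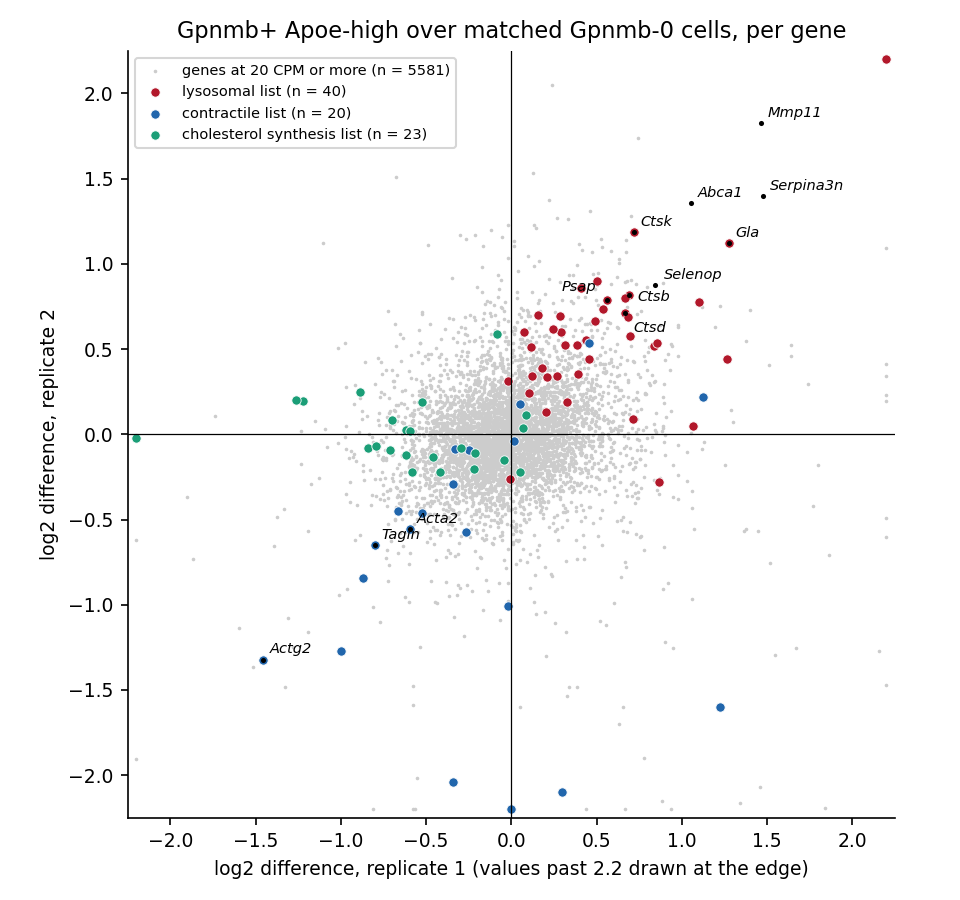
Log2 difference of each gene between the *Gpnmb*+ *Apoe*-high set and matched cells in replicate 1 (x axis) and replicate 2 (y axis), for 5581 genes with a mean of at least 20 CPM (grey) and all tested genes of the lysosomal, contractile and cholesterol synthesis lists. Most lysosomal genes (red) lie at the upper right and most contractile genes (blue) at the lower left; no error bars are drawn for single libraries.

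Promoters of lysosomal genes often carry the E-box CACGTG, the core of the motif that MiT factors bind, and the windows below show where it lies, or is absent, in *Gpnmb* and in genes of the lysosomal list. The letters CACGTG, and the longer TCACGTGA that contains them, were searched from 250 bases before to 50 bases after each RefSeq start. Both are palindromes, so that a match counts for both strands. CACGTG was in 7.15% of all 32851 promoters and TCACGTGA in 0.974%, and counted by gene in 8.09% and 1.12% of 27025 genes. Of the 30 lysosomal genes with a promoter in the table, 11 held CACGTG (36.7%) and 5 held TCACGTGA (16.7%); of 17 cholesterol synthesis genes 4 held CACGTG (23.5%) and 0 TCACGTGA, and none of 17 contractile genes held either. A match is a description of the letters and not a bound site. The RefSeq windows (GRCm38.p6, 5′ to 3′ on the strand of the gene, motif in capitals) are as follows. *Gpnmb* (plus strand, chr6:49036388-49036517) and *Lamp1* (plus strand, chr8:13159031-13159160) are shown for the 130 bases before the start, and the others for 30 bases around a motif.
Gpnmb: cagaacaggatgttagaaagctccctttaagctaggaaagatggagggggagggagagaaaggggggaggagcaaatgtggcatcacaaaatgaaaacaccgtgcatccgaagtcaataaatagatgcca
Lamp1: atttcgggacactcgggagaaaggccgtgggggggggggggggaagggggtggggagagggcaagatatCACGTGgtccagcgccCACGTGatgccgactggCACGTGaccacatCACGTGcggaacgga
Ctsd: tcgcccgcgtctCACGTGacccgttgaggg
Gla: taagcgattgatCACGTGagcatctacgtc
Gaa: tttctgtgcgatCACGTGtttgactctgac
Naglu: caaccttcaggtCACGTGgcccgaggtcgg
Mcoln1: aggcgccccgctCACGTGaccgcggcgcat

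*Lamp1* held 4 copies within its last 61 bases before the start, and *Gpnmb* held 0 in this window. The *Ctsd* window lies at chr7:142387908-142387937 (minus strand), the *Gla* window at chrX:134601215-134601244 (minus strand), the *Gaa* window at chr11:119267811-119267840 (plus strand), the *Naglu* window at chr11:101070009-101070038 (plus strand) and the *Mcoln1* window at chr8:3500462-3500491 (plus strand). In the GENCODE annotation no exon overlaps the *Gpnmb*, *Lamp1* and *Gaa* windows, whereas an annotated exon overlaps each of the other 4. *Gaa*, acid α-glucosidase, was at 77.9 and 108 CPM against 54.3 and 58.4 CPM in matched cells, and *Naglu*, which degrades heparan sulfate, at 22.9 and 27.9 CPM against 12.5 and 19.5 CPM. *Mcoln1*, a calcium channel of lysosomes, was at 8.35 and 12.2 CPM against 6.26 and 9.68 CPM.

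Of 16 genes for MiT factors and autophagy, 12 were higher in both libraries, 1 was lower in both, and 9 had an unadjusted p below 0.05, with a median log2 difference of 0.34. *Gabarap*, an ATG8 protein of autophagosomes, was at 1326 and 1812 CPM against 1087 and 1516 CPM. *Map1lc3b*, another, was at 637 and 952 CPM against 509 and 734 CPM. *Fnip1*, a partner of folliculin upstream of MiT factors, was at 58.4 and 73.2 CPM against 41.7 and 47.3 CPM. The MiT gene *Tfe3* was at 36.2 and 22.2 CPM against 29.2 and 19.0 CPM. None of these passed the edgeR test.

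Lipid genes gave a mixed picture. *Abca1*, the transporter that exports cholesterol to apolipoproteins, was at 26.4 and 38.6 CPM against 12.5 and 15.2 CPM in matched cells and 5.50 and 5.93 CPM in contractile cells, a log2 difference from matched cells of 1.27 ± 0.18 (edgeR adjusted p = 0.0827). *Soat1*, which esterifies cholesterol for storage, was at 73.0 and 83.6 CPM against 65.4 and 53.8 CPM. Of the 11 tested efflux and LXR target genes 5 were higher in both libraries and 1 lower, and of 8 lipid uptake receptors 3 and 2. *Lrp1*, the most abundant receptor, was at 221 and 239 CPM against 225 and 159 CPM, and *Lpl*, lipoprotein lipase, at 223 and 226 CPM against 247 and 106 CPM, so that both exceeded matched cells in replicate 2 only. The scavenger receptor gene *Cd36* had 100% and 92.0% of its UMIs in macrophage-marked cells.

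Of 19 lipid droplet and fatty acid genes 11 were higher in both libraries and 4 lower. *Fabp3*, a fatty acid binding protein, was at 53.5 and 121 CPM against 10.4 and 57.2 CPM (log2 difference 1.29 ± 0.28, edgeR adjusted p = 0.178, DESeq2 adjusted p = 0.0125). *Plin2*, which coats lipid droplets, was at 57.7 and 62.7 CPM against 30.6 and 51.8 CPM. The related *Fabp5*, the most abundant gene of the list, was at 789 and 720 CPM against 872 and 882 CPM. Of 23 cholesterol synthesis genes 2 were higher in both libraries and 12 lower (52.2%, against 27.9% of all genes), with a median log2 difference of -0.58 in replicate 1 and -0.07 in replicate 2. *Fdps*, farnesyl diphosphate synthase, was at 86.2 and 144 CPM against 152 and 154 CPM. With the *Sox9*, *Fgf18* and *Il1rn* exclusions applied to matched cells too, 3 were higher and 4 lower and the median was 0.01, so that this direction was not kept.

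Of 19 tested genes of lipid-associated macrophages, 15 were higher in both libraries, against 26.7% of all genes, and 2 were lower. However, 5 of them (*Ctsb*, *Ctsd*, *Ctsl*, *Cd63* and *Lipa*) are also on the lysosomal list. Without macrophage-marked cells only 15 genes were tested, of which 11 were higher and 2 lower. The median log2 difference was then 0.448, against 0.575 with these cells. *Lgals3* was at 259 and 205 CPM against 39.7 and 181 CPM, and without macrophage-marked cells the set had it at 101 and 142 CPM. *Trem2*, the receptor that defines these macrophages, had 100% and 98.5% of its UMIs in macrophage-marked cells. *Spp1* (osteopontin) was at 203 and 87.2 CPM against 146 and 65.0 CPM and at 603 and 161 CPM in contractile cells. edgeR called *Mmp12* alone among the genes of this list, and DESeq2 called 2.

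**Figure D4:**
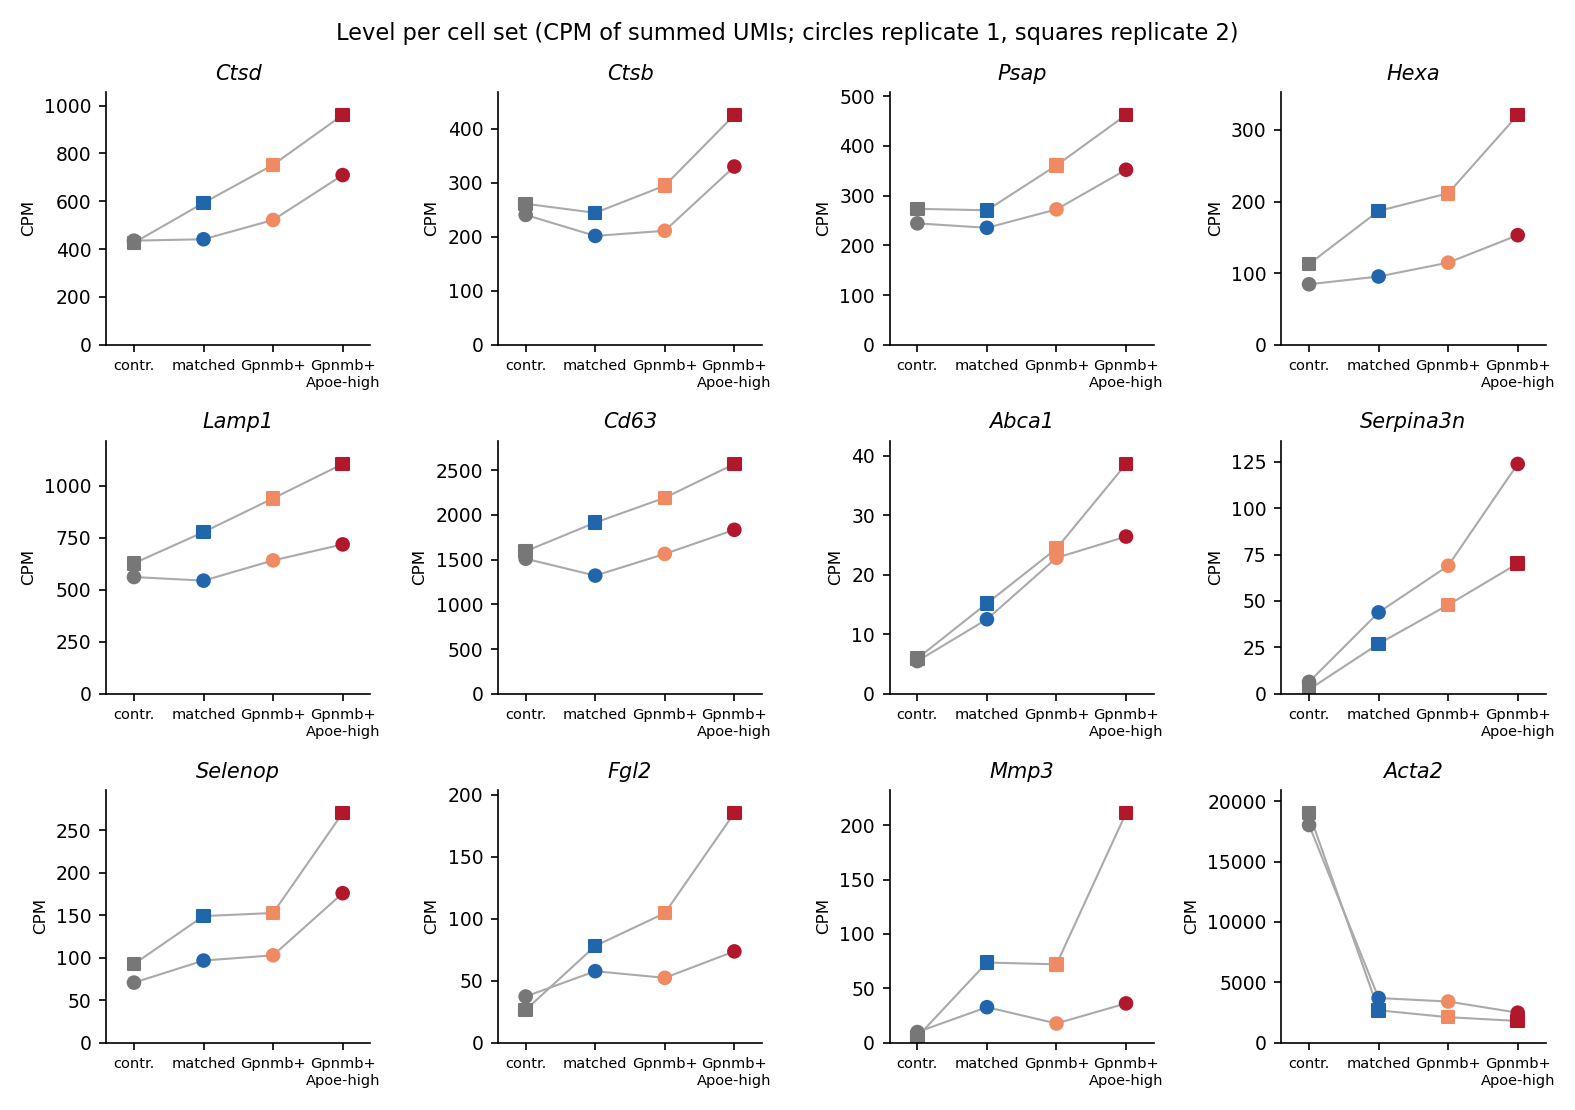
CPM of summed UMIs (y axis from 0) of 12 genes in contractile cells (contr.), matched cells, *Gpnmb*+ cells under 5 *Apoe* UMIs (Gpnmb+) and the *Gpnmb*+ *Apoe*-high set, with circles for replicate 1 and squares for replicate 2 and lines joining sets of 1 library. *Ctsd* is at 709 and 961 CPM in the *Gpnmb*+ *Apoe*-high set, above the other 3 sets of each library, and *Acta2* is lowest there; single points have no error bars.

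Contractile genes ran the other way. Of 20 genes of the contractile list, without *Myh11*, 13 (65%) were lower than in matched cells in both libraries, against 27.9% of all genes, and 3 were higher. At an unadjusted edgeR p below 0.05, 10 were lower and 1 was higher. *Acta2* (α-smooth muscle actin) was at 2488 and 1805 CPM against 3702 and 2686 CPM, a log2 difference of -0.57 ± 0.15 (edgeR adjusted p = 0.214). *Tagln* (SM22α) was at 1252 and 880 CPM against 2155 and 1399 CPM (-0.73 ± 0.20, edgeR adjusted p = 0.240). *Actg2*, the enteric actin, was at 26.4 and 14.1 CPM against 71.7 and 35.7 CPM (-1.37 ± 0.35, edgeR adjusted p = 0.214, DESeq2 adjusted p = 0.00711), and the integrin gene *Itga8* at 25.7 and 25.3 CPM against 46.6 and 45.9 CPM (DESeq2 adjusted p = 0.0424). Exceptions were *Mustn1*, at 119 and 89.7 CPM against 85.6 and 62.5 CPM, and *Mylk* (myosin light chain kinase), at 128 and 52.8 CPM against 125 and 54.8 CPM. *Myh11* was kept low in both sets by the rule, so that these values compare cells low in it.

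Against contractile cells edgeR called 1625 genes higher (13.7%) and 1633 lower (13.8%). All 20 contractile genes were lower, with *Acta2* at 18020 and 19018 CPM in contractile cells. The choice of contractile cells by *Myh11* makes this a description of the gate. Of the 40 lysosomal genes 26 were higher and 1, *Ctsh*, was lower. In contractile cells *Ctsd* was at 435 and 426 CPM, *Ctsb* at 241 and 261 CPM and *Psap* at 244 and 273 CPM, each below the set in both libraries. *Gla* was at 7.78 and 6.10 CPM there (log2 fold change of the set 2.12, edgeR adjusted p = 9.05e-04).

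Matrix genes did not move as a group. Of 25 modulated SMC and matrix genes 11 were higher and 6 lower in both libraries. *Dcn* was at 655 and 1018 CPM against 447 and 481 CPM and *Lum* (lumican) at 204 and 320 CPM against 127 and 154 CPM, without passing the edgeR test (adjusted p = 0.456 and 0.454). *Thbs1*, thrombospondin-1, was at 926 and 551 CPM against 1712 and 742 CPM (log2 difference -0.65 ± 0.11, edgeR adjusted p = 0.120, DESeq2 adjusted p = 0.0026). *Eln* (elastin) was at 105 and 247 CPM against 150 and 594 CPM (-0.98 ± 0.23, edgeR adjusted p = 0.203, DESeq2 adjusted p = 0.0214). The most abundant, *Mgp*, an inhibitor of calcification, was at 4842 and 7258 CPM against 4144 and 4898 CPM. The chondrocyte-like list had 1 of 12 tested genes higher and 6 lower in both libraries, and *Col11a1*, its most abundant gene, was at 59.8 and 85.6 CPM against 129 and 103 CPM. The part of the *Sox9* exclusion in the values of this list was not tested.

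Among matrix proteases and inhibitors 9 of 15 tested genes were higher in both libraries and 4 lower. *Mmp2* (gelatinase A) was at 78.6 and 153 CPM against 50.1 and 75.7 CPM (log2 difference 0.89 ± 0.19, edgeR adjusted p = 0.178, DESeq2 adjusted p = 0.0488), and its activator *Mmp14* at 256 and 238 CPM against 191 and 167 CPM. *Adamts5*, an aggrecanase, was at 330 and 195 CPM against 484 and 294 CPM (-0.57 ± 0.10, edgeR adjusted p = 0.142, DESeq2 adjusted p = 0.00602). The inhibitor *Timp2* was at 1363 and 1921 CPM against 1298 and 1677 CPM.

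Innate immune and stress genes were measured with the same fit. Of 10 tested complement genes 6 were higher in both libraries and none was lower in both, with *C1s1* at 46.6 and 48.9 CPM against 38.3 and 20.5 CPM. The median log2 difference of the list was 0.75, with 0.21 in replicate 1 and 0.88 in replicate 2. With at least 5 *Apoe* UMIs required of matched cells too, 4 were higher and 3 lower and the median was 0.06, so that this direction was not kept. Of 17 cytokine genes 5 were higher and 2 lower, with *Cxcl12* at 2093 and 2506 CPM against 2617 and 1717 CPM. Of 21 interferon-stimulated genes 11 were higher and 2 lower, none at an unadjusted p below 0.05, with *B2m* at 231 and 395 CPM against 216 and 311 CPM. Of 20 antioxidant and iron genes 9 were higher and 1 lower. The ferritin genes *Ftl1* (6944 and 10853 CPM against 4622 and 9033 CPM) and *Fth1* (8351 and 9295 CPM against 5197 and 7364 CPM) were the most abundant of them. *Gstm1*, a glutathione transferase, was at 280 and 229 CPM against 118 and 138 CPM (log2 difference 0.99 ± 0.21, edgeR adjusted p = 0.178, DESeq2 adjusted p = 0.0123).

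For the cGMP pathway, the subject of the study, 4 of 13 tested genes (30.8%) were higher than in matched cells in both libraries. Another 2 (15.4%) were lower in both, against 26.7% and 27.9% of all genes. None of the 13 passed the edgeR test. Against contractile cells edgeR called 2 of the 13 higher and 5 lower, where it called 13.7% and 13.8% of all genes. *Npr2*, which encodes the CNP receptor GC-B, was at 34.8 and 55.6 CPM against 31.3 and 41.7 CPM in matched cells and 22.0 and 34.1 CPM in contractile cells (log2 difference from matched cells 0.35 ± 0.14, edgeR adjusted p = 0.398). *Npr3*, the clearance receptor Npr-C, was at 153 and 155 CPM against 216 and 156 CPM. The NO-sensitive cyclase subunit *Gucy1b1* was at 24.3 and 16.8 CPM against 22.3 and 18.4 CPM in matched cells and 56.6 and 75.8 CPM in contractile cells (edgeR adjusted p = 5.31e-04 against contractile cells). The phosphodiesterase gene *Pde3a* was at 113 and 118 CPM against 97.4 and 79.9 CPM. *Vasp*, a substrate of the cGMP-dependent kinase, was at 98.8 and 79.3 CPM against 130 and 101 CPM.

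The lysosomal level was followed over the range of each rule gene, as a description. In low-*Myh11* cells with 0, 1, 2 to 3 and at least 4 *Gpnmb* UMIs, the list summed to 6030, 6424, 6758 and 7863 CPM in replicate 1 and to 8396, 9181, 9962 and 11107 CPM in replicate 2. Among *Gpnmb*+ cells with under 5, 5 to 9 and at least 10 *Apoe* UMIs it was 6490, 7588 and 8605 CPM, and 9556, 10973 and 12444 CPM. The level was higher in each further range in both libraries. Cells with more *Gpnmb* UMIs also had more UMIs in all, with medians of 17724 to 30835.5 and of 10658 to 18268 from the lowest to the highest range, and the part of depth in this order was not tested. The contractile list was at 16648 CPM with 0 and at 12742 CPM with at least 4 *Gpnmb* UMIs in replicate 1, and at 11212 and 9023 CPM in replicate 2.

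**Figure D5:**
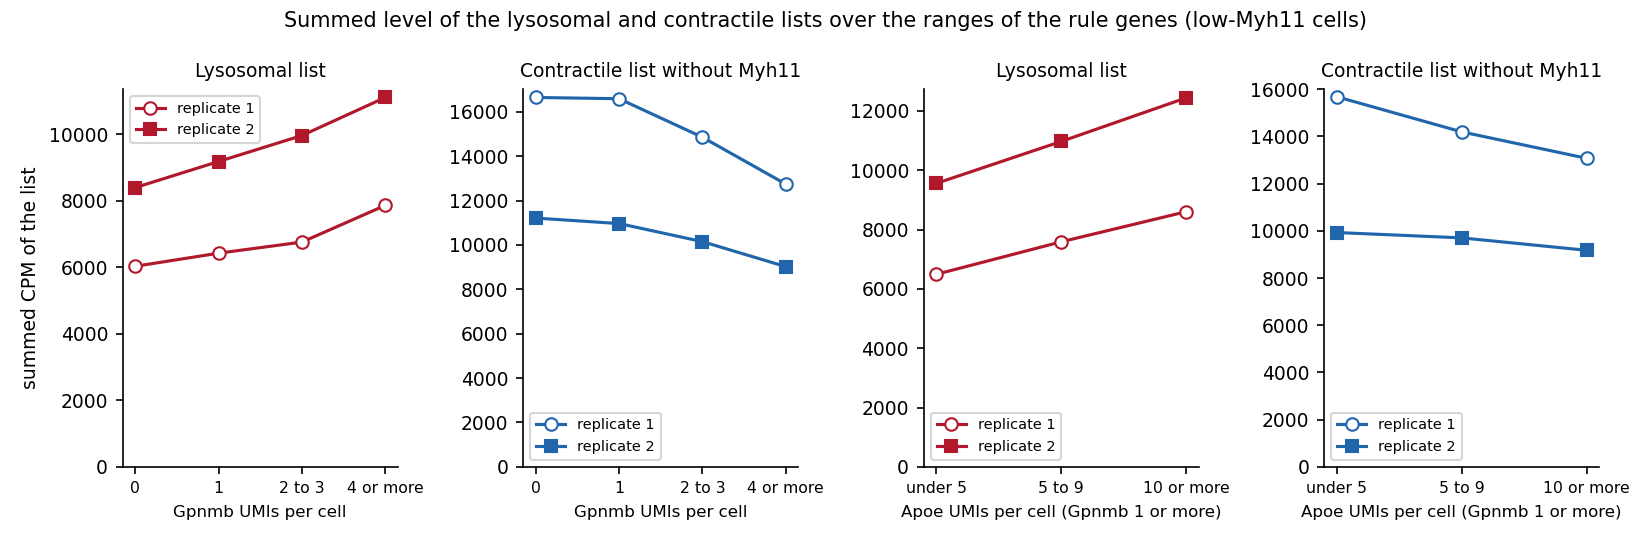
Summed CPM (y axes from 0, each panel with its own scale) of the lysosomal list and of the contractile list without *Myh11* in low-*Myh11* cells, by *Gpnmb* UMIs (left pair) and, among cells with *Gpnmb*, by *Apoe* UMIs (right pair). Open circles are replicate 1 and filled squares replicate 2; the lysosomal sums go from 6030 to 7863 and from 8396 to 11107 CPM over the *Gpnmb* ranges.

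Cells just inside and just outside the limits were close to each other in lysosomal level, but not in every gene. At 5 to 6 *Apoe* UMIs, inside, the lysosomal list was at 7546 CPM (18 cells) and 11263 CPM (145 cells), and at 3 to 4 *Apoe* UMIs, outside, at 7257 CPM (37 cells) and 10680 CPM (163 cells). With 1 *Gpnmb* UMI, inside, it was at 7617 CPM (38 cells) and 10681 CPM (125 cells), and with 0 *Gpnmb* but at least 5 *Apoe* UMIs, outside, at 7260 CPM (92 cells) and 9885 CPM (152 cells). Cells with *Apoe* alone thus had lysosomal levels between those of matched cells and of the set. *Gpnmb*+ cells under 5 *Apoe* UMIs (224 and 890 cells) were at 6769 and 10045 CPM. At the *Apoe* limit, *Acta2* was at 1882 CPM inside and 3582 CPM outside in replicate 1. In replicate 2 it was at 2089 and 2150 CPM. At the *Gpnmb* limit, *Fgl2* was at 76.5 CPM inside and 47.4 CPM outside in replicate 1. In replicate 2 it was at 70.0 and 107 CPM, the other direction. With at least 5 *Apoe* UMIs required of matched cells too, 30 of 40 lysosomal genes were higher in the set in both libraries, with a median log2 difference of 0.36.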

How the data were processed

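Both libraries were made with the 10x Genomics 3′ v3 method from VSMCs of wildtype mice. The authors aligned the reads with Cell Ranger and deposited raw UMI counts of 31053 genes for every barcode, unfiltered and not normalized. The submitters' notes name Cell Ranger 3.0.2 and mm10, and the file headers name 3.0.2 for replicate 1 and 3.1.0 for replicate 2. An effect of this difference on the counts was not tested.

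Quality control followed the study: a cell needed 300 or more genes, 3000 or more UMIs and a mitochondrial share below 20%. Doublets were kept, and the 5% of cells with the most UMIs were left out in an alternative. 9 barcodes occurred among the cells of both libraries, and 0 among the set. The members, gene lists and tests were chosen with earlier results of these data known.

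UMIs were summed per library and cell set (the set, matched cells, *Gpnmb*+ cells under 5 *Apoe* UMIs that met the other conditions, and contractile cells), which gave 8 sums. The set summed to 1437940 and 9887949 UMIs, so that low genes are less precise in replicate 1. In R 4.3.3, the sums were scaled by TMM, filtered by filterByExpr to 11860 genes and tested by the quasi-likelihood test of edgeR 4.0.16, with Benjamini-Hochberg adjustment over these genes and a threshold of 0.05. The 9 rule genes were left out. The model had the library as a block, since sums of 1 library share a culture: deviations from the set means of same-library sums correlated at 0.534 to 0.787 over 5584 genes. With n = 2 libraries, p-values rest on how much the differences between sets varied between the 2 cultures, after the library block. This spread was estimated over all 4 sets, and single cells gave no p-value. The SE was taken as the log2 fold change divided by the root of its F statistic. Single-library differences use a prior count of 0.5 and have no test. DESeq2 1.42.0 was an alternative. Its adjusted p was NA for 8737 genes, so that it was adjusted over fewer genes than the edgeR values. The fits were tested on simulated data for 2 comparisons. They recovered 71.4% and 62% of genes changed by 1 on the log2 scale, and 96.6% and 92.6% of those changed by 2. False calls were 6.78% and 8.19% of all calls, more than the threshold of 0.05 allows for.

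Named were genes past the threshold with a mean of at least 20 CPM, predicted genes passed over, and per list up to 4 called members at any level and the most abundant gene that was not called, with further members where a group needed them. A few members of the lists are not reported here. The called *Xdh* and *2200002D01Rik* fall outside this rule and were named after their values were seen, since so few genes were called. Promoters are those of RefSeq (GRCm38.p6).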

Additional observations from a re-analysis of the deposited data

How the results depend on the processing

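The counts of called genes depended on the processing, and none of the 21 genes recomputed under the alternatives reversed the direction of its fold change. Against the main 5 higher and 2 lower genes, there were 0 and 0 with no replicate block, 23 and 26 by DESeq2, 100 and 82 with no filter on low counts, 25 and 43 with the same exclusions in matched cells, 21 and 15 without EC-marked cells, 1 and 0 without matching on UMIs, 2 and 6 with matched cells of at least 5 *Apoe* UMIs, 18 and 15 with at least 2 *Gpnmb* UMIs, 14 and 8 with at least 10 *Apoe* UMIs, 0 and 0 with no *Apoe* condition and 0 and 0 without macrophage-marked cells. Without EC-marked and macrophage-marked cells together, chosen after seeing the data, there were 5 and 3, and *Mmp11*, *Xdh*, *Serpina3n* and *Selenop* had an edgeR adjusted p of 0.0227. DESeq2 size factors in edgeR gave 4 and 1. Leaving out pairs over 10% apart in UMIs, chosen after seeing the data, gave 3 and 0. The causes were not tested. Of the alternatives that gave an adjusted p, *Mmp12* was called in 11 of 13, *Serpina3n* in 10 and *Selenop* in 9 of 16, and *Mmp11* in 9, *Xdh* in 8, *Col2a1* in 7 and *2200002D01Rik* in 4 of 15. Against contractile cells the counts of 1625 and 1633 were 578 and 688 with no replicate block. The lysosomal list had 30 to 37 genes higher in both libraries under the alternatives run on both libraries, and edgeR called up to 17 of them with no filter. The median log2 difference of contractile genes, -0.57, was -0.57 without replicate 1, -0.30 without replicate 2, -0.35 without pairs over 10% apart and -0.31 with matched cells of at least 5 *Apoe* UMIs.

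The share of the set in replicate 1 was 0.617% with at least 2 *Gpnmb* UMIs, 0.740% with at least 10 *Apoe* UMIs and 0.815% after thinning. In replicate 2 it was 8.74% with a minimum of 1000 UMIs, 8.22% after thinning, 7.87% with at least 2 *Gpnmb* UMIs and 5.63% with at least 10 *Apoe* UMIs. The mean of both libraries, 5.55%, became 9.70% without replicate 1 and 1.40% without replicate 2. With the same exclusions only 559 matched cells (median 8542 UMIs) were left in replicate 2, and with at least 5 *Apoe* UMIs only 223.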

Other observations

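Genes for protein folding in the endoplasmic reticulum were chosen after the differences had been seen, so that their count supports nothing. Of 16 such genes, 15 were lower than in matched cells in both libraries and none was higher in both, with a median log2 difference of -0.24, while 0 passed the edgeR threshold, 9 had an unadjusted p below 0.05 and DESeq2 called 5. *Hspa5*, the chaperone BiP, was at 1266 and 1145 CPM against 1739 and 1482 CPM (log2 difference -0.41 ± 0.07, edgeR adjusted p = 0.120, DESeq2 adjusted p = 0.00468). *Manf*, a secreted factor of the same stress response, was at 542 and 626 CPM against 848 and 810 CPM, and *Pdia3*, a disulfide isomerase, at 777 and 651 CPM against 829 and 648 CPM. In contractile cells *Hspa5* was at 1469 and 1374 CPM and *Manf* at 784 and 900 CPM, so that the *Gpnmb*+ *Apoe*-high set had the lowest levels of the 3 sets in both libraries.

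Of 19 integrated stress response and growth arrest genes, a list that also holds *Hspa5*, 3 were higher and 6 lower than in matched cells in both libraries, with a median log2 difference of 0.19 in replicate 1 and -0.23 in replicate 2. *Cdkn1a*, the cell cycle inhibitor p21, was at 251 and 233 CPM in the set, 161 and 195 CPM in matched cells and 317 and 324 CPM in contractile cells (log2 difference from matched cells 0.42 ± 0.10, edgeR adjusted p = 0.204). *Asns*, asparagine synthetase, was at 38.2 and 31.4 CPM against 49.4 and 52.2 CPM (-0.61 ± 0.14, edgeR adjusted p = 0.193). The cycling genes themselves were held low by the rule. *Nupr1*, a stress-induced regulator that was abundant in contractile cells (1071 and 900 CPM), was at 154 and 55.5 CPM in the set and at 96.7 and 170 CPM in matched cells, so that the libraries differed in direction.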
